A study of Mus musculus with 6 samples.

Results

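The genes described here are 44 interferon response genes: receptor chains, the transcription factors that carry the signal, and the antiviral and signalling genes that they induce. They were taken as a named list, matched by gene symbol in each library, and all 44 were found among the 23401 gene units of the series. The libraries were made from RNA of mouse thymus cells sorted as double-negative 1 (DN1), the CD44-positive and CD25-negative cells that include the earliest progenitors of the thymus. In the labels 3 libraries are WT and 3 are Tle134-deficient, all from mice aged 5 to 8 weeks. Tle134 is read as Tle1, Tle3 and Tle4, corepressors of the Groucho family. The sources used here do not give the deleting strain, its Cre or the animals behind each library, and p-values therefore reflect only library-to-library spread, which may be partly technical.

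Type I interferons bind a receptor made of Ifnar1 and Ifnar2 and act through a complex that includes Stat2 and Irf9 and binds the interferon-stimulated response element. Type II interferon binds Ifngr1 and Ifngr2 and acts mainly at gamma-activated sites. In lymphocytes and their progenitors many of these genes are also transcribed at a low level without infection, and several interferon regulatory factors (IRFs) have roles in lymphoid and myeloid development.

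Levels are in FPKM (fragments by transcript length and by library total), so they can be compared between genes. A difference is the libraries labelled Tle134-deficient minus WT on the log2(FPKM + 1) scale, on which low genes show less than their true ratio. It was tested with limma over the 11063 units that reached 1 FPKM in at least 3 libraries, with Benjamini-Hochberg adjustment over all of them and a threshold of 0.05. All 44 members met that filter. Values are listed in the order of replicates 1, 2 and 3, with WT first, and errors of differences are SE.

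The targeted genes did not bear out the genotype labels. Tle1 was at 1.37, 1.19 and 3.61 FPKM across WT replicates 1 to 3, against 11.49, 11.3 and 11.1 FPKM for replicates 1 to 3 labelled Tle134-deficient. Tle3 was at 26.1, 35.9 and 23.4 against 82.6, 77.5 and 58.6 FPKM, and Tle4 at 17.9, 18.8 and 14.5 against 27.8, 35.2 and 17.8 FPKM. A locus-wide FPKM includes reads outside a deleted part, so this is a partial check, and the group is called the libraries labelled deficient below. Of the gate's markers, Cd44 was at 27.5 to 74.3 FPKM and Cd8a at 0 to 2.48 FPKM over the 6 libraries. Il2ra (CD25) was at 2.83, 3.59 and 1.69 FPKM across WT, against 6.75, 7.36 and 4.22 FPKM. Cd24a, listed with them, was at 39.0, 39.1 and 74.3 against 110, 74.6 and 293 FPKM. Kit was at 31.8, 36.5 and 37.1 against 9.09, 21.5 and 33.9 FPKM (log2 difference -0.86). Ptprc was at 77.2, 58.2 and 129 against 139, 127 and 117 FPKM, and both genes overlapped between the groups. Of the 6 listed, 5 were tested and 0 passed the threshold. Il2ra and Cd24a lay higher without overlap and 0 of the list lay lower in this way, where 8.67% and 6.56% of all units did. Markers of B cells were present in every library and moved with the label: 10 of 12 rose and 0 fell past the threshold, where 0.642% and 0.108% of all units did. Their summed level was 88.9 to 170 FPKM in WT against 836 to 1354 FPKM. With WT replicate 1, or labelled-deficient replicate 1 or 2, left out, 0 of all units passed the threshold in limma, these markers included. The same was so without a filter on low values, and with the replicate number as a block 1 of all units was higher. Cr2, one of them, was listed at 0 in WT replicates 1 and 3. The summed level of 13 T-lineage markers was 485 to 1316 against 307 to 893 FPKM, with 1 lower (Tox) and 0 higher past the threshold. At an unadjusted p under 0.05 in limma, 1 was higher and 3 were lower, where 5.68% and 4.35% of all units were. The summed level of 9 natural killer and cytotoxic markers was 124 to 250 against 81.3 to 301 FPKM, and that of 7 conventional dendritic cell markers 19.5 to 27.5 against 15.6 to 61.5 FPKM. Of these, 6 and 5 were tested, with 0 of either past the threshold in limma (1 and 0 higher, 3 and 0 lower at an unadjusted p under 0.05). The summed level of 12 monocyte, macrophage and neutrophil markers was 131, 297 and 614 FPKM for WT replicates 1 to 3, against 125, 141 and 1451 FPKM, so both libraries numbered 3 were the highest of their group, and S100a9 was listed at 0 in the other 4. Of the 9 tested, 0 passed the threshold in limma (2 higher and 0 lower at an unadjusted p under 0.05). Of 10 plasmacytoid dendritic cell markers, 9 of them tested, 1 rose (Spib, which B cells share) and 0 fell past the threshold in limma, with 3 higher and 1 lower at an unadjusted p under 0.05. Their summed level was 114 to 133 against 127 to 205 FPKM, and Siglech, the most specific, was at 0 to 8.38 against 0.362 to 3.54 FPKM. The part of these cells in the interferon results was not tested. In RNA from many cells, more cells of a type and more RNA per cell cannot be told apart.

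Promoters of the 3 separated oligoadenylate synthetases, chosen after their values were seen, are shown first, with a classical target that did not separate (Ifit1) and a gene whose values lay lower (Irf1). The sequences are from RefSeq (GRCm38.p6), 250 bases before the start of transcription, 5′ to 3′ on the gene's strand. Capitals mark matches on either strand to GAAA, any 2 bases and GAAA, the core of the interferon-stimulated response element, or to TTCNNNGAA, the gamma-activated site; overlapping matches run together. The windows are chr5:120907526-120907775 (minus strand) for Oas1a, chr5:120887614-120887863 (minus strand) for Oas1g, chr5:120777660-120777909 (minus strand) for Oas3, chr19:34640639-34640888 (plus strand) for Ifit1 and chr11:53769764-53770013 (plus strand) for the first of the 2 Irf1 starts in the table.
Oas1a: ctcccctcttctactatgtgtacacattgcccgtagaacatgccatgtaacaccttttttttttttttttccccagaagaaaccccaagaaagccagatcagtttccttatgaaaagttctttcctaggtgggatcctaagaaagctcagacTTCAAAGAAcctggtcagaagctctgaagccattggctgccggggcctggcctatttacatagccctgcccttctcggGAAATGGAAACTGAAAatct
Oas1g: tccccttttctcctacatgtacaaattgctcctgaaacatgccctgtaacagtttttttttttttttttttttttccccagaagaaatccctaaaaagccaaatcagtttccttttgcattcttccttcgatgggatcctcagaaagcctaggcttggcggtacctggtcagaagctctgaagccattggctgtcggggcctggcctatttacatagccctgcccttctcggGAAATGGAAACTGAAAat
Oas3: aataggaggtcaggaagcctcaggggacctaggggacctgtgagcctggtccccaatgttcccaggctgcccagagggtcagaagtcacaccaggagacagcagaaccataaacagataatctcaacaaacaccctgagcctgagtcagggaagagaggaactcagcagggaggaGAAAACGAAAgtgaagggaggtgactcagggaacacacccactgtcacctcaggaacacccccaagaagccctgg
Ifit1: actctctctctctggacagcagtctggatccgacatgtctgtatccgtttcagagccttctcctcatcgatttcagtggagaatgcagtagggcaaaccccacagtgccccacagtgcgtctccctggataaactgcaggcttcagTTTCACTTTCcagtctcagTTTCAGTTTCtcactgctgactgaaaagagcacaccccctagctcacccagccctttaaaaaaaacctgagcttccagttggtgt
Irf1: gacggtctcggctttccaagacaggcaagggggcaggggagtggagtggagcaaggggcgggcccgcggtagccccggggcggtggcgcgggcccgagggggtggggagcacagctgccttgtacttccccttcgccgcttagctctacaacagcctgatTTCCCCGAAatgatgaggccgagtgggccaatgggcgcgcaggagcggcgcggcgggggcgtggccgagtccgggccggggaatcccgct

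Oas1a and Oas1g each carry a pair of overlapping response elements just before the start, and Oas1a has in addition a gamma-activated site. Oas3 has a single element, beginning 75 bases before the start, and Ifit1 has a pair on the other strand, beginning 104 and 85 bases before it. Irf1 has a gamma-activated site and no response element in this window. The response element was also not found for Oasl1 and Oasl2 of the same family, nor for the separated members Ifngr1, Ifngr2, Irf7, Irf9 and Samhd1. A promoter of 300 bases (250 before to 50 after the start) was found in RefSeq for 35 of the 44 members. The response element was present in 17 of the 35 (48.6%), against 3.99% of 27025 genes with a promoter, and the gamma-activated site in 13 (37.1%), against 9.55%. All 5 guanylate-binding protein and immunity-related GTPase genes held the response element, and 0 of the 4 receptor chains did. The median log2 difference was 0.35 over the 17 members with the element and 0.56 over the 18 without it. Over the 250 bases before the start alone it was 0.58 (14 members) and 0.49 (21 members), and with CT required after the element 0.60 (9 members) and 0.42 (26 members). The order of the medians thus depended on how the element was searched. A match describes letters in a window and is not a measured binding site.

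No interferon response gene passed the threshold: 0 of 44 were called by limma, against 71 higher (0.642%) and 12 lower (0.108%) of all units tested, or 0.75% in either direction. Most values lay to one side of WT. The log2 difference was above 0 for 35 members (79.5%), against 52.7% of all units, and the median was 0.42, against 0.04. At an unadjusted p under 0.05, 4 members were higher and 1 lower, beside 5.68% and 4.35% of all units. In 8 members (18.2%) every library labelled deficient lay above every WT library and in 2 (4.55%) below, where 8.67% and 6.56% of all units were so separated. The other 34 overlapped. The members were chosen with earlier results of these data known, so their shares beside those of all units are a description only. Oas1g met the filter through the libraries labelled deficient alone, so it had to differ; without it 7 members were separated higher, 3 were higher at an unadjusted p under 0.05 and the median was 0.35. For 5 of the 10 separated members (Ifngr2, Irf1, Oas1a, Oas1g and Oas3) the deposited intervals of the nearest libraries of the groups were also apart, and for the other 5 they overlapped. For Oas3 a wider interval, 0.965 to 4.66 FPKM in WT replicate 2, did overlap that of labelled-deficient replicate 1, 3.81 to 5.66 FPKM. Levels were those of ordinary genes: the median member was at 8.12 FPKM in WT, where the median of all units tested was 8.43 FPKM, and 40 of 44 members reached 1 FPKM in every library.

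**Figure D1:**
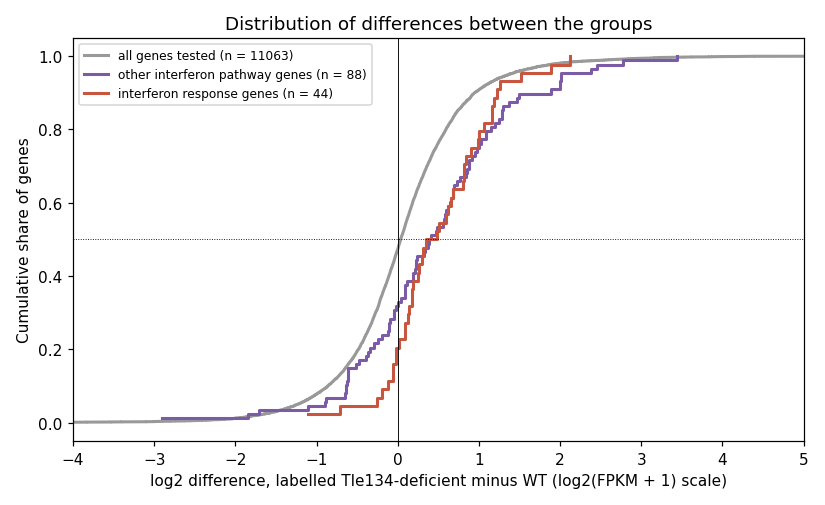
Cumulative share of genes (vertical axis) by log2 difference, libraries labelled deficient minus WT (horizontal axis), for all 11063 units tested, for 88 other interferon pathway units and for the 44 interferon response genes. Both interferon curves lie to the right of that of all units at their middle, with medians of 0.42 and 0.40 against 0.04.

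The members did not move as one block between libraries. Relative to the WT mean, the mean of the 44 members was -0.28, -0.01 and 0.28 on the log2 scale in WT replicates 1 to 3 and 0.72, 0.34 and 0.46 in labelled-deficient replicates 1 to 3. WT replicate 3 thus lay close to labelled-deficient replicate 2 in FPKM as deposited. Median-ratio scaling factors, from units above 0 in every library, were 0.84, 0.92 and 1.23 in WT. They were 0.98, 0.92 and 1.16 in the labelled-deficient libraries, and the means above are not rescaled by them. WT replicate 3 therefore also stood above labelled-deficient replicate 2 over units in general. The highest library was labelled-deficient replicate 1 for 18 members, labelled-deficient replicate 3 for 10, WT replicate 3 for 7, and each of the other 3 libraries for 3. These counts are also of FPKM as deposited, and the same count over all units is not given here. With both libraries numbered 1 left out, the shallowest of their groups and a choice made after seeing the data, the members' median was 0.20 and 27 of the 43 then tested lay above 0. With both libraries numbered 3 left out, likewise a later choice, the median was 0.59 and 36 of the 41 then tested lay above 0. The median of all units was -0.03 without both libraries numbered 1 and 0.10 without both numbered 3.

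**Figure D2:**
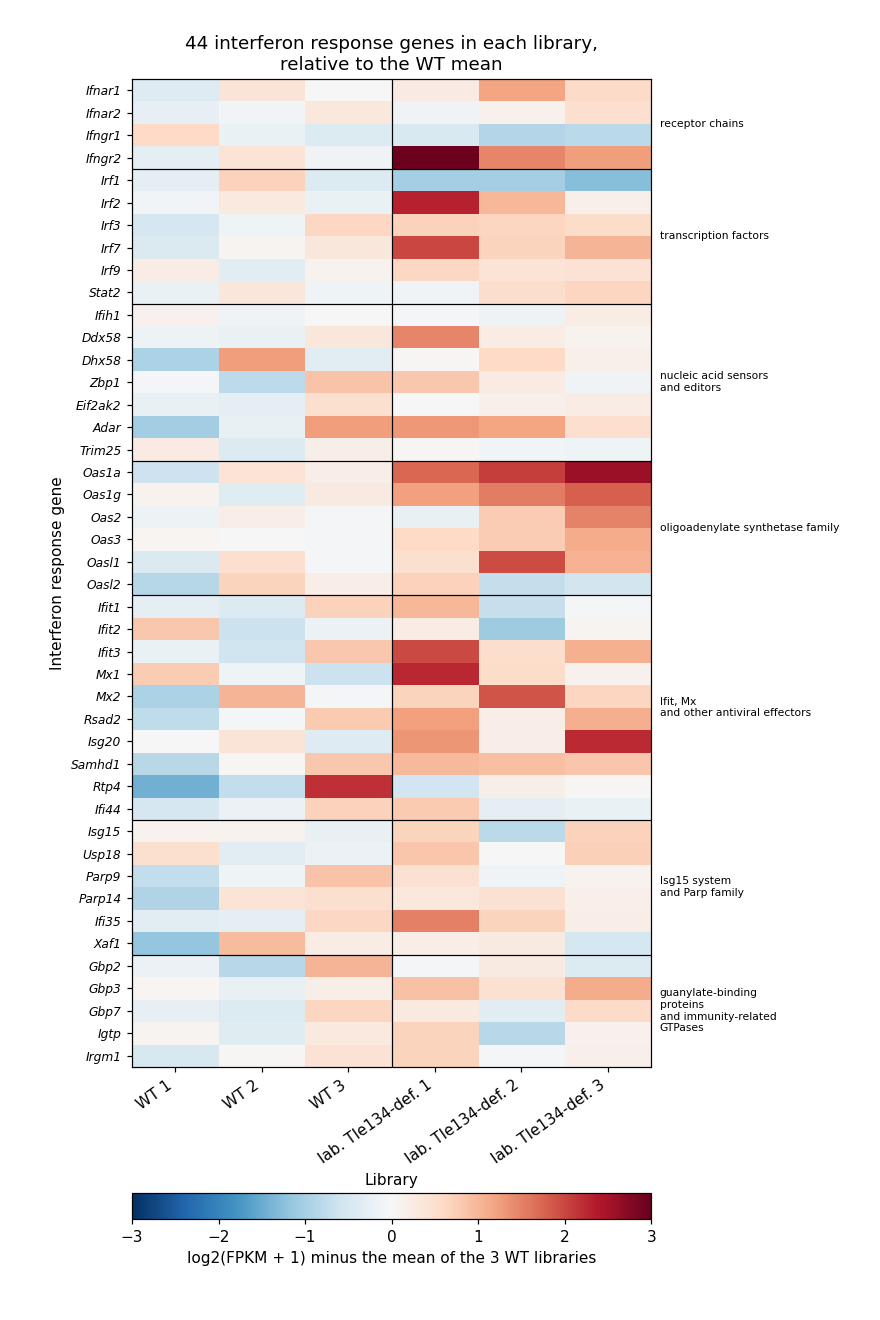
Level of each of the 44 interferon response genes (rows, ordered by role) in each of the 6 libraries (columns), as log2(FPKM + 1) minus the mean of the 3 WT libraries; red is above and blue below that mean. The rows of Oas1a, Oas1g, Ifngr2 and Irf7 are red in the 3 libraries labelled deficient and the row of Irf1 is blue there, while most effector rows vary within both groups.

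Among the receptor chains, both chains of the type II receptor lay in opposite directions. Ifngr2 (mm9, chromosome 16, 91547339 to 91564252), the signal-transducing chain, was at 11.2, 19.1 and 12.9 FPKM across WT replicates 1 to 3, against 114, 40.7 and 34.6 FPKM for replicates 1 to 3 labelled Tle134-deficient. The groups did not overlap, and labelled-deficient replicate 1 was far above the others (log2 difference 1.88 ± 0.51 SE, limma adjusted p = 0.177). Ifngr1 (chromosome 10, 19311764 to 19330031), the ligand-binding chain, had the highest WT mean of all members, at 198, 113 and 98.1 FPKM, against 94.9, 70.5 and 74.3 FPKM for the labelled-deficient libraries. Its groups were separated by 3.18 FPKM, with WT replicate 1 far above the other WT libraries, and they overlapped once libraries were rescaled by median ratio or upper quartile (log2 difference -0.71 ± 0.48, adjusted p = 0.716, and -0.41 without WT replicate 1). The mean level of Ifngr1 was 136 ± 53.7 and 79.9 ± 13.1 FPKM and that of Ifngr2 was 14.4 ± 4.18 and 63.3 ± 44.5 FPKM (SD, n = 3 each). Of the type I receptor chains, Ifnar1 was at 5.63, 10.3 and 7.85 against 9.29, 18.7 and 11.9 FPKM, and Ifnar2 at 20.0, 22.6 and 29.8 against 22.1, 26.3 and 34.1 FPKM. Both overlapped between the groups, and the deposited interval of Ifnar1 in WT replicate 1 reached from 0 to 49648 FPKM, so that value is very imprecise.

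The transcription factors included Irf1, the only member of the 44 that was lower at an unadjusted p under 0.05. This activator (chromosome 11, 53583516 to 53591876), itself induced by interferon gamma, was at 43.0, 85.8 and 39.2 FPKM across WT, against 25.3, 25.5 and 21.1 FPKM for the labelled-deficient libraries. All 3 of these lay below the lowest WT library, and WT replicate 2 stood highest (log2 difference -1.11 ± 0.43, limma adjusted p = 0.405). With 1 library left out the difference of Irf1 ranged from -1.31 to -0.76. Without WT replicate 2, or without any 1 labelled-deficient library, 0 members were lower at an unadjusted p under 0.05 in limma. Irf7 (chromosome 7, 148449082 to 148452323), the factor that amplifies type I interferon production, was at 6.44, 9.64 and 11.8 against 39.2, 14.9 and 19.3 FPKM. Its groups did not overlap (1.23 ± 0.46, adjusted p = 0.371), but its deposited interval reached from 0 to 1111 FPKM in WT replicate 1 and from 0 to 901 FPKM in labelled-deficient replicate 3. Irf9 (chromosome 14, 56222822 to 56228867), the DNA-binding part of the type I complex, was at 26.2, 17.6 and 24.1 against 34.7, 30.2 and 30.5 FPKM. That separation was lost under both rescalings (0.49 ± 0.37, adjusted p = 0.760).

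Irf2, a relative of Irf1 that can repress interferon targets, was at 17.0, 22.5 and 15.5 FPKM across WT, against 94.3, 37.3 and 20.2 FPKM for the labelled-deficient libraries. Labelled-deficient replicate 1 was again the highest and replicate 3 lay within the WT range. Irf3, the constitutive factor activated by nucleic acid sensing, was at 7.17, 9.55 and 16.8 against 17.6, 16.9 and 15.9 FPKM. Stat2, the transactivating partner of Irf9, was at 3.75, 5.90 and 4.06 against 4.11, 6.90 and 7.54 FPKM. Irf2, Irf3 and Stat2 thus overlapped between the groups, though Irf3 no longer did after median-ratio scaling.

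Among the IRFs outside the 44 members, 3 had larger log2 differences than any IRF within, in the direction of the B-cell markers. Irf4, Irf5 and Irf8 are named after their values were seen. Irf4, a factor of B-cell and plasma cell differentiation, was at 8.46, 10.99 and 4.38 FPKM across WT, against 35.7, 74.4 and 35.3 FPKM for the labelled-deficient libraries (log2 difference 2.45 ± 0.47, limma adjusted p = 0.0534). Irf5, which acts downstream of Toll-like receptors, was at 8.59, 5.83 and 7.99 against 39.5, 33.7 and 26.8 FPKM (difference 2.02 ± 0.38, adjusted p = 0.05004). Irf8, a factor of dendritic, myeloid and B cells, was at 13.2, 8.33 and 20.4 against 45.7, 79.6 and 46.9 FPKM (difference 1.998 ± 0.452, adjusted p = 0.0955). In each the lowest labelled-deficient library lay above the highest WT library, but none passed the threshold over all units; the part of B cells in these values was not tested.

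**Figure D3:**
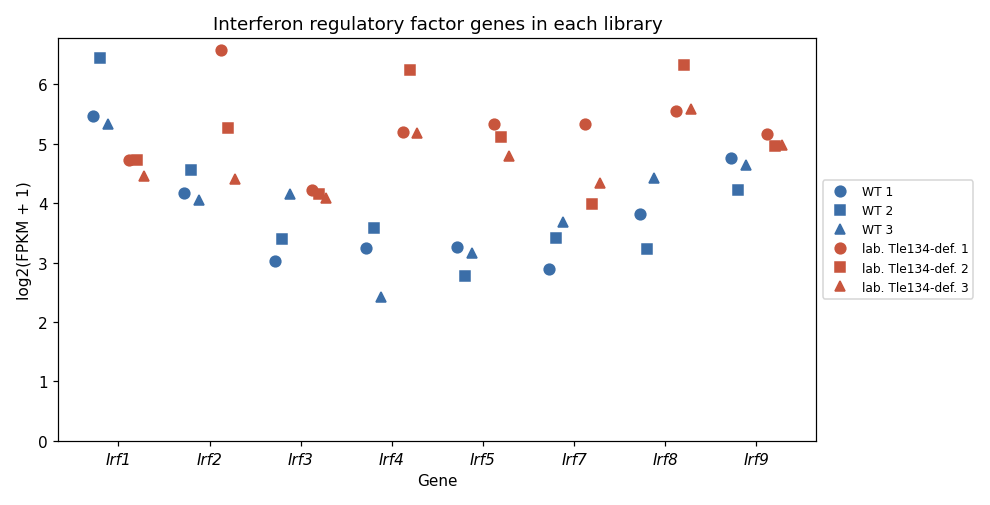
Level of 8 IRF genes as log2(FPKM + 1) in each library (blue, WT; red, libraries labelled deficient; circle, square and triangle are libraries 1, 2 and 3). Irf4, Irf5, Irf7, Irf8 and Irf9 lie higher in all 3 red libraries, Irf1 lies lower, and Irf2 and Irf3 overlap.

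The oligoadenylate synthetases make the second messenger that activates the antiviral ribonuclease RNase L, and they held the member with the smallest p. Oas1a (chromosome 5, 121346266 to 121357534) was at 1.13, 3.31 and 2.73 FPKM across WT, against 9.76, 12.6 and 18.2 FPKM for the labelled-deficient libraries. The lowest of the latter was 6.45 FPKM above the highest WT value (log2 difference 2.12 ± 0.48, limma adjusted p = 0.0954; means 2.39 ± 1.13 and 13.5 ± 4.29 FPKM, SD, n = 3 each). Its neighbour Oas1g (chromosome 5, 121326151 to 121337622) was listed at 0.382, 0 and 0.550 FPKM across WT, against 2.05, 2.74 and 3.46 FPKM, with the same order of the 3 labelled-deficient libraries. It was under 1 FPKM in every WT library, so it entered the test only where it is high and its difference is a description. The genes are close copies, so reads may be divided between them and they do not count as independent. Oas3 (chromosome 5, 121203107 to 121227668) was at 2.92, 2.81 and 2.65 against 4.74, 5.41 and 7.18 FPKM, also without overlap (0.82 ± 0.44, adjusted p = 0.612).

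The rest of the family overlapped. Oas2 was at 4.53, 6.10 and 4.95 FPKM across WT, against 4.29, 9.40 and 16.4 FPKM, so that 1 labelled-deficient library lay below WT. Oasl1, which lacks synthetase activity, was at 1.34, 3.46 and 2.04 against 3.39, 11.3 and 5.49 FPKM. Oasl2 was the highest family member in WT, at 3.57, 12.1 and 8.51 FPKM, against 12.4, 4.03 and 4.67 FPKM for the labelled-deficient libraries (-0.19 ± 0.57, adjusted p = 0.973). With Oas1g the family's median log2 difference was 0.99, the largest of the 7 role groups, and 0.83 after upper-quartile scaling. Without Oas1g it was 0.82, below the 0.87 of the group of Ifit, Mx and other antiviral effectors.

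**Figure D4:**
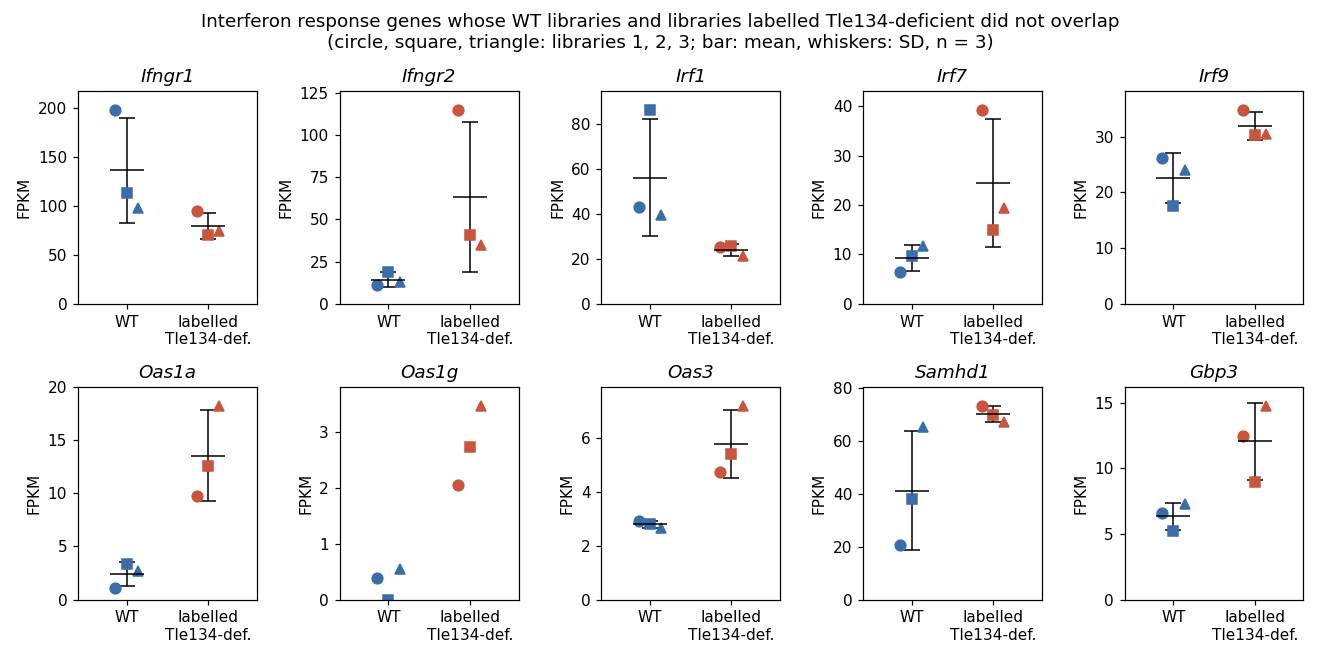
FPKM of the 10 members whose groups did not overlap, in WT and in the libraries labelled deficient (circle, square and triangle are libraries 1, 2 and 3; horizontal bars are means and whiskers SD, n = 3; none is drawn for Oas1g, which is listed at 0 in WT replicate 2). Ifngr1 and Irf1 lie lower in the libraries labelled deficient and the other 8 lie higher, with gaps between the groups from 1.498 FPKM (Oas1g) to 15.5 FPKM (Ifngr2).

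The sensors and RNA-editing genes overlapped between the groups in 7 of 7 cases, as most genes did: 15.2% of all units were separated in either direction. Adar, the RNA-editing enzyme that marks own double-stranded RNA, had the highest WT mean among them. It was at 6.52, 12.5 and 36.4 FPKM across WT, against 37.3, 34.2 and 21.2 FPKM for the labelled-deficient libraries, so WT replicate 3 reached the level of the latter (0.99 ± 0.58, limma adjusted p = 0.655). The difference was 0.47 without WT replicate 1 and 1.63 without WT replicate 3. Ddx58 (RIG-I), a sensor of viral RNA, was at 7.96, 7.65 and 11.7 against 26.4, 10.6 and 9.77 FPKM, and only labelled-deficient replicate 1 stood out. Ifih1 (MDA5), the related sensor of long double-stranded RNA, was at 3.76 to 5.14 FPKM in all 6 libraries. Dhx58 (LGP2) was at 2.85 to 16.6 FPKM, Zbp1, a sensor of Z-form nucleic acids, at 8.43 to 28.7 FPKM, and Trim25, the ubiquitin ligase of the RIG-I pathway, at 10.03 to 16.4 FPKM. Eif2ak2 (PKR) shares its locus with Gm6548 in some libraries, and the pair was at 9.38 to 16.3 FPKM.

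The classical effectors were low in both groups and did not separate. Ifit1, which binds viral RNA lacking a host cap, was at 2.68, 2.33 and 6.10 FPKM across WT, against 7.90, 1.76 and 3.24 FPKM for the labelled-deficient libraries. Ifit2 was at 11.1, 3.41 and 5.14 against 7.08, 2.27 and 6.36 FPKM, and Ifit3 at 2.02, 1.28 and 5.05 against 12.6, 3.96 and 6.24 FPKM. For all 3 the WT and labelled-deficient ranges overlapped and labelled-deficient replicate 1 was the highest of its group, though Ifit3 no longer overlapped after either rescaling.

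Mx1, an antiviral dynamin-like GTPase, was at 6.48, 3.04 and 1.82 FPKM across WT, against 20.2, 5.44 and 3.85 FPKM. Mx2 was listed at 0, 2.91 and 0.839 against 2.08, 6.15 and 2.0004 FPKM. Rsad2 (viperin) was at 0.143, 0.907 and 2.38 against 3.59, 1.25 and 3.13 FPKM. These 3 genes overlapped, each through a single library; for Mx2 that is WT replicate 2, whose deposited interval reached from 0 to 137 FPKM. Isg20, an exonuclease, was at 3.03, 4.20 and 2.07 against 9.001, 3.63 and 18.0 FPKM, with labelled-deficient replicate 2 within the WT range.

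Samhd1, the enzyme that depletes deoxynucleotides, was the highest effector and the only one without overlap. It (chromosome 2, 156923265 to 156960958) was at 20.4, 37.8 and 65.2 FPKM across WT, against 73.1, 69.8 and 67.0 FPKM for the labelled-deficient libraries. The gap between the groups was 1.88 FPKM, small beside the WT spread of 22.5 FPKM SD (0.90 ± 0.49, limma adjusted p = 0.617), and without WT replicate 1 the difference was 0.49. Rtp4 was at 57.5 FPKM in WT replicate 3 and between 3.79 and 13.5 FPKM elsewhere, and Ifi44 at 0.698 to 3.14 FPKM in all 6.

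Of the Isg15 system, the ubiquitin-like modifier Isg15 was at 4.80, 4.88 and 3.68 FPKM across WT, against 7.67, 2.09 and 7.69 FPKM for the labelled-deficient libraries. Usp18, the protease that removes it and dampens type I signalling, was at 15.3, 8.35 and 9.28 against 19.6, 10.6 and 17.9 FPKM. Parp9 was the highest of this group in WT, at 5.90, 9.57 and 19.7 against 14.8, 9.44 and 11.4 FPKM (0.14 ± 0.48, limma adjusted p = 0.978). All 6 genes of the group overlapped, where 15.2% of all units were separated in either direction. Parp14 was at 4.12 to 12.3 FPKM over all libraries, Ifi35 at 7.04 to 28.0 FPKM and Xaf1 at 1.36 to 9.07 FPKM.

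The GTPases, which attack vacuoles of intracellular pathogens and respond mainly to interferon gamma, held 1 member of 5 without overlap. Over all units 15.2% were separated in either direction. Gbp3 (chromosome 3, 142223016 to 142236176) was at 6.59, 5.24 and 7.27 FPKM across WT, against 12.5, 8.97 and 14.8 FPKM for the labelled-deficient libraries (0.81 ± 0.40, limma adjusted p = 0.567). Its neighbours on chromosome 3 overlapped, with Gbp2 at 3.47 to 14.9 FPKM and Gbp7 at 5.03 to 11.5 FPKM over all 6 libraries. Irgm1, the highest of the group in WT, was at 12.01, 17.8 and 23.8 against 27.8, 16.5 and 19.2 FPKM (difference 0.25 ± 0.42, adjusted p = 0.939). Igtp was at 4.87 to 15.5 FPKM. The group's median log2 difference was 0.17, and 0.01 after upper-quartile scaling.

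A second list of 126 pathway genes outside the members, of which 120 were found, gave 1 call among its 88 units tested, higher, and 0 lower, where 0.642% and 0.108% of all units were called. At an unadjusted p under 0.05, 15 were higher and 0 lower, beside 5.68% and 4.35% of all units. The unit called was Irgc1, a relative of the interferon-induced GTPases, listed at 0, 0.561 and 0.611 FPKM across WT, against 14.9, 18.2 and 9.53 FPKM for the labelled-deficient libraries (log2 difference 3.44 ± 0.49, limma adjusted p = 0.0279). Like Oas1g it was under 1 FPKM in every WT library and entered the test only where it is high, so the call is a description. It ended without WT replicate 1 or 2 (adjusted p = 0.109 and 0.0734), with the replicate number as a block (0.0738) and without a filter on low values (0.0806). With any 1 labelled-deficient library left out the gene reached 1 FPKM in only 2 libraries and was not tested. Of the 88 units, 25 (28.4%) were separated with the higher values in the libraries labelled deficient and 2 (2.27%) the other way, beside 8.67% and 6.56% of all units. Irgc1 is counted in these 25 and in the 15 above, though the filter fixed its separation. The list was chosen with earlier results of these data known, so its shares beside those of all units are a description only.

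Named after their values were seen, the unit of the near-identical Trim30a and Trim30d was at 13.4, 22.01 and 19.1 against 86.3, 73.0 and 66.1 FPKM (2.01 ± 0.40, limma adjusted p = 0.0581). Ifi30, a thiol reductase of antigen processing that responds to interferon gamma, was at 26.3, 7.84 and 35.7 against 170, 132 and 124 FPKM (difference 2.77 ± 0.56, adjusted p = 0.0673). Tlr9, the endosomal DNA sensor of B cells and plasmacytoid dendritic cells, was at 1.64, 0.993 and 2.19 against 21.8, 14.2 and 5.84 FPKM (difference 2.38 ± 0.55, adjusted p = 0.101). These units were separated without overlap, as were the B-cell markers in 12 of 12 cases, and the part of B cells in them was not tested.

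The receptor kinases did not differ past the threshold. Jak1, the kinase common to both receptors, was at 61.6, 52.0 and 80.6 against 83.9, 63.8 and 60.8 FPKM (difference 0.11 ± 0.43, limma adjusted p = 0.983). Tyk2, the partner kinase of Ifnar1, was at 75.7 FPKM in WT replicate 1 and between 5.66 and 9.13 FPKM elsewhere (-0.89 ± 0.81, adjusted p = 0.821).

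Interferon genes themselves were barely represented. Of 19 ligand genes, 4 were listed at 0 in every library and 9 reached 1 FPKM in a single library. Ifng, the only ligand that met the filter, was at 0, 0.966 and 1.62 FPKM across WT, against 2.28, 5.96 and 1.15 FPKM for the labelled-deficient libraries (limma adjusted p = 0.627). Ifnb1 was listed at 0 in 5 libraries and at 0.128 FPKM in labelled-deficient replicate 2.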

How the data were processed

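RNA from 3 WT libraries and 3 labelled Tle134-deficient was analysed from 1 deposited table per library. The tools include TopHat2 2.1.1, featureCounts 2.0.1 and Trimmomatic 0.38, and the build is mm9, per the submitters' processing notes (without roles or order). Per the file headers the deposited values are FPKM with a lower and an upper bound, in the layout of a Cufflinks gene table; the sources used here give no version, annotation or strand setting for it. Total reads are unknown. If the bounds span 2 SD of a fragment count, fragments at loci with a symbol number 1.42e+06 to 3.24e+06 for WT and 1.51e+06 to 4.34e+06 otherwise, and a member above 0 a median of 120.

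Rows were summed by symbol, and symbols sharing a locus in any library were joined (24318 symbols, 23401 units). Log2(FPKM + 1) was fitted with limma 3.58.1 (R 4.3.3; group only, trend and robust empirical Bayes) for units at 1 FPKM or more in 3 or more libraries. The code was tested on simulated data. Tables and promoters were read with Python 3.11.15 and pandas 2.3.3. Start coordinates were raised by 1.

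The members and lists were chosen with earlier results of these data known. Members with an adjusted or unadjusted p under 0.05, with groups apart, or with the highest WT mean of their role have statistics; of the second list, those past the threshold, Jak1, Tyk2 and Ifng (Ifnb1 was not tested), and others named as chosen after their values were seen. The alternatives were pseudocounts of 0.1 and 5, filters, scalings, unjoined symbols, limma settings, library weights, a replicate block and left-out libraries. No test of the list as a set was made. Some genes of the second list are not reported here.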

Additional observations from a re-analysis of the deposited data

How the results depend on the processing

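With 3 libraries a group and wide spread between them, 0 of the members tested (34 to 44) passed the threshold in limma under every alternative run (1 to 8 higher and 0 to 2 lower at an unadjusted p under 0.05). Some of these runs, given below, called 0 of all units, so 0 members there is no result about the members. The members' median log2 difference stayed above 0, at 0.28 and 0.46 with pseudocounts of 5 and 0.1, 0.24 with upper-quartile scaling (which moved the median of all units from 0.04 to -0.13) and 0.33 to 0.61 when 1 library was left out. The median of all units was -0.04 where the members' was 0.33 (without WT replicate 1) and 0.20 where it was 0.61 (without WT replicate 3). Counts over all units depended on the processing: 71 higher and 12 lower became 0 and 0 without a filter (637 and 544 at an unadjusted p under 0.05), and 1 and 1 with the replicate number as a block. The number lower was 3 and 5 with pseudocounts of 0.1 and 5, 4 without the trend and robust step and 20 with library weights. Leaving out 1 library gave 0 to 68 higher and 0 to 10 lower (0 and 0 when WT replicate 1 or labelled-deficient replicate 1 or 2 was dropped, 2 and 0 for WT replicate 2, 68 and 1 for WT replicate 3, 26 and 10 for labelled-deficient replicate 3); leaving out both libraries numbered 1 gave 0 and 0, and both numbered 3 gave 30 and 0. The 1 other pathway unit called became 5 with a filter of 5 FPKM (Irf4, Irf5, Trim30a/Trim30d and Ifi30 among them), 2 with median-ratio scaling, 6 with library weights, 0 without a filter, 0 with the block, 0 to 2 with 1 library left out and 0 with both libraries numbered 1 or both numbered 3 left out. The cause was not tested. The response element was found in 9 members when CT was also required after it, against 17, a longer and so rarer motif by construction; the order of the medians with and without the element then turned (0.60 and 0.42, against 0.35 and 0.56), as it did for the bases before the start alone.

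Same-numbered libraries correlated in their deviations from the group means at 0.08, 0.18 and 0.17, each the highest for its number. Not all were over 0.1 and the labels give no tie between these libraries, so the main fit had no block, but they may be paired. With the block 0 members passed the threshold, in a fit that called few of all units. At an unadjusted p under 0.05 in limma, 6 members were then higher and 2 lower, against 4 and 1 without the block.

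Differences near 0 reversed in sign without passing the threshold. Upper-quartile scaling gave -0.026 for Parp9 and -0.080 for Jak1. With 1 library left out the ranges were -0.22 to 0.57 for Parp9, -0.034 to 0.28 for Jak1, -1.54 to 0.22 for Tyk2 and -0.63 to 0.14 for Oasl2. With both libraries numbered 1 left out, Parp9 was at -0.38, Irgm1 at -0.20, Jak1 at -0.055 and Tyk2 at 0.21. With both numbered 3 left out, Oasl2 was at 0.087.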
